A study of Ovis aries with 10 samples.

Results

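Among the miRNAs measured in sheep lung with bleomycin-induced fibrosis, 4 are known from muscle and connective tissue. They are miR-143 of smooth muscle, miR-133 of striated muscle, miR-199a-3p of fibroblasts and miR-218a, which is made from introns of SLIT genes in mesenchymal cells. They were chosen by name, as the probes oar-miR-143, oar-miR-133, oar-miR-199a-3p and oar-miR-218a, and make up 4 of the 152 ovine miRNA probes on the array. The tissue came from 5 female merino sheep, aged 9 months per the labels and numbered 2, 3, 6, 7 and 10, which the study selected for the most severe fibrosis. In each animal 1 caudal lung segment was infused with bleomycin, a drug that injures the lung and leads to scarring, and the caudal segment of the other lung with saline. Both were sampled at week 4, which gave 5 segments labelled Fibrosis and 5 labelled Normal on 10 arrays. The saline segment lies in the same animal as the injured one, so it is an internal control and not untreated lung. The labels give the left segment as fibrotic in sheep 2 and 3 and the right segment in sheep 6, 7 and 10, whereas the study text infuses bleomycin on the left in every animal. The labels were used, and values by side are given below.

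Each miRNA is a short RNA that pairs with messenger RNAs and lowers their translation or stability. MiR-143 is transcribed together with miR-145 in smooth muscle of vessels and airways and is known for its part in the contractile state of these cells. MiR-133 is transcribed together with miR-1 in skeletal and heart muscle, where it acts on muscle growth and differentiation. The miR-199a hairpin that gives miR-199a-3p lies in a transcript that runs antisense to a dynamin gene, and it is known from mesenchymal cells and activated fibroblasts. MiR-218 is processed from introns of SLIT2 and SLIT3, whose proteins guide axons and migrating cells through ROBO receptors. In the RefSeq annotation of the sheep assembly ARS-UI_Ramb_v3.0 all 4 members matched a hairpin gene by name. MIR218A lay within SLIT3 and MIR199A within DNM3, the gene of dynamin 3. MIR143 lay within a long non-coding RNA gene, with IL17B and PCYOX1L as the nearest named protein-coding genes, and MIR133 lay outside other genes, with SLCO4A1 and GATA5 nearest. Coordinates are not given, because no genome build is named for the array.

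Values are intensities of 1 dye (arbitrary units) as the authors deposited them, set to at least 1 and put on the log2 scale for tests. A change is the log2 intensity of the fibrotic minus that of the normal segment of the same sheep. The summed intensity of the miRNA probes lay between 138979 and 146225 on the 10 arrays, while the geometric mean of 39 control probes with signal lay between 497 and 2560. All 4 members had a mean log2 signal above 5 over the 10 arrays, a level reached by 59 of the 152 miRNA probes. Levels of different probes are not set against each other, since probes bind their targets unequally. Lung tissue was measured in bulk, so fewer cells of a type and less RNA per cell cannot be told apart.

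The fibroblast-linked miR-199a-3p was higher with fibrosis in all 5 animals on the deposited values, by next to nothing in sheep 6. MiR-218a was lower in 4 animals on these values. MiR-133 had the largest mean difference of the 4 members and the widest spread, and miR-143 went in opposite directions in different sheep. None of the 4 changes passed an adjusted p under 0.05 in limma, nor did that of any miRNA on the array (0 of 152, 0%). At an unadjusted p under 0.05, limma called 18 of the 152 miRNAs (11.8%), 10 of them higher (6.58%) and 8 lower (5.26%) with fibrosis. MiR-199a-3p was among the 10 and miR-218a among the 8. Of 19 alternative settings, this call was lost under 10 for miR-199a-3p, with an unadjusted limma p of 0.159 after centring on the miRNA median and 0.110 without sheep 3, 0.075 without sheep 7 or 0.102 without sheep 10, and under 11 for miR-218a, with 0.133 after quantile normalization, 0.444 after centring on the control probes with signal and 0.238 without the sheep as a block, and also without sheep 2, 3, 6 or 7. The members were chosen with earlier results of these arrays known, so this count is a description.

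**Figure D1:**
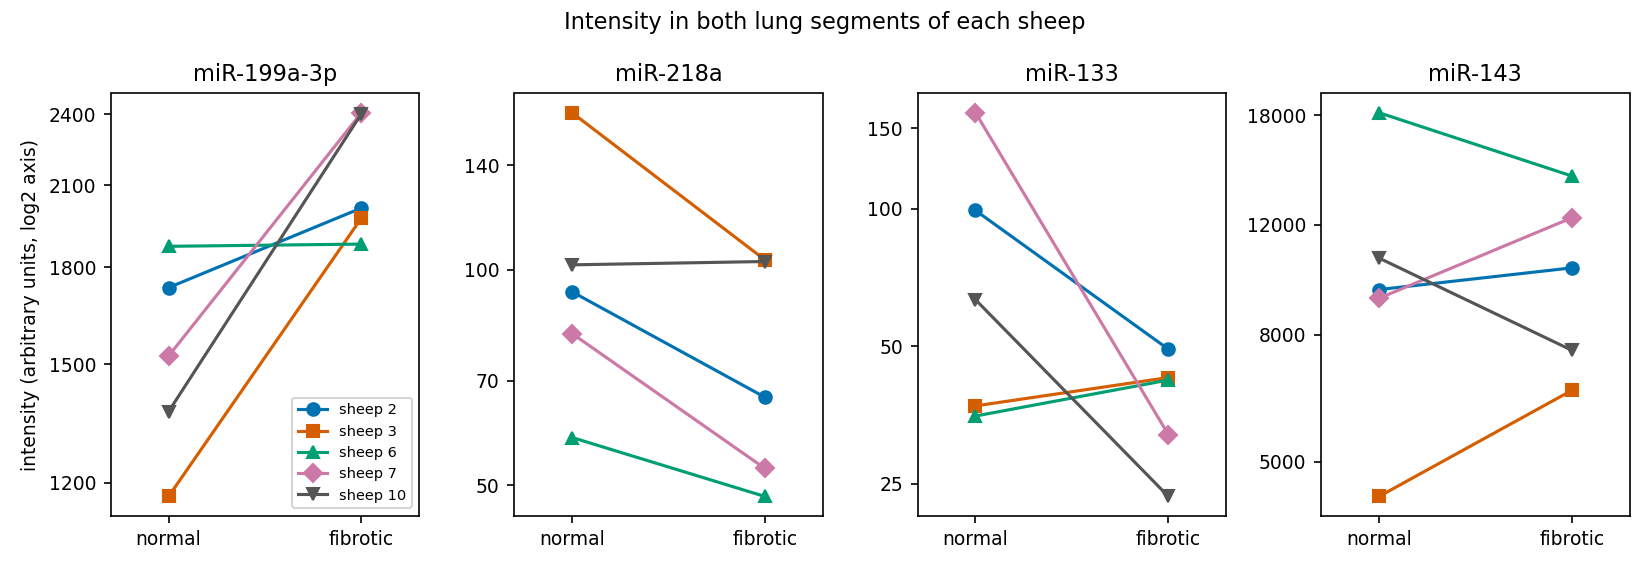
Intensity of each member (arbitrary units, log2 axis, a separate range for each panel) in the normal and the fibrotic segment of 5 sheep, with a line joining the segments of 1 animal. The miR-199a-3p lines of sheep 3, 7 and 10 climb steeply and that of sheep 6 is flat, the miR-218a lines slope down except in sheep 10, and the miR-133 lines of sheep 2, 7 and 10 descend to a common low range.

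From the normal to the fibrotic segment, the intensity of miR-199a-3p went from 1732 to 2012 in sheep 2, from 1169 to 1975 in sheep 3, from 1872 to 1880 in sheep 6, from 1523 to 2408 in sheep 7 and from 1371 to 2403 in sheep 10. Every fibrotic segment lay above every normal segment. MiR-200b was the other miRNA of which this held, 2 of 152 (1.32%). The lowest fibrotic and the highest normal value both came from sheep 6 and differed by 0.0060 on the log2 scale. The groups overlapped when arrays were centred on the miRNA median, on the control probes or on miR-103, or were quantile normalized. The fibrotic segment was then higher in 3 of 5 sheep with the miRNA median or miR-103, and in 4 with the control probes or after quantile normalization, as sheep 2, sheep 6 or both fell on the other side of 0. The normal segments had a mean of 1534 ± 280 (SD, n = 5) and the fibrotic segments one of 2136 ± 251 (SD, n = 5). The mean log2 change was 0.49, which is 1.40-fold with a 95% interval from 1.04 to 1.89. Of the 152 miRNAs, 13 were higher with fibrosis in each of the 5 animals (8.55%). The exact sign-flip permutation test over the 5 sheep, two-sided, gave p = 0.063 for miR-199a-3p, the smallest value that 5 sheep allow, and limma an adjusted p of 0.411. By animal, sheep 3, 7 and 10 had 1.69, 1.58 and 1.75 times the normal intensity in the fibrotic segment, sheep 2 had 1.16 times, and the segments of sheep 6 were nearly level.

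MiR-218a went from an intensity of 93.2 to 66.4 in sheep 2 and from 166 to 103 in sheep 3, the normal segment first. It went from 58.3 to 48.3 in sheep 6, from 81.5 to 52.8 in sheep 7 and from 102 to 103 in sheep 10. The fibrotic segment was lower in sheep 2, 3, 6 and 7 and within 1.01 times the normal one in sheep 10, and the groups overlapped, because sheep 3 and 10 were high and sheep 6 low in either segment. Of the 152 miRNAs, 39 were lower with fibrosis in at least 4 animals (25.7%). The mean log2 change of miR-218a was -0.41 with a standard error of 0.15, or 0.75 times the normal level with a 95% interval from 0.58 to 0.98. Its limma adjusted p was 0.411, and the two-sided exact sign-flip permutation test gave p = 0.125. With each array centred on all 55 control probes, dim ones included, a step that raised the median of all miRNAs by 0.26, the mean log2 change of miR-218a was -0.16. The fibrotic segment was then lower in 3 of 5 sheep and higher in sheep 6 and 10, as with the control probes with signal. With the miRNA median it was lower in all 5, and in 4 under the other scalings.

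For miR-133, the striated muscle miRNA, the intensity went from 99.1 to 49.3 in sheep 2, from 37.0 to 42.7 in sheep 3, from 35.2 to 42.2 in sheep 6, from 162 to 32.03 in sheep 7 and from 63.2 to 23.5 in sheep 10, again the normal segment first. The fibrotic segments were all between 23.5 and 49.3, and the animals differed mainly in the normal segment, where sheep 7 was highest and sheep 6 lowest. On the log2 scale, normal segments averaged 6.06 ± 0.94 (SD, n = 5) and fibrotic ones 5.20 ± 0.43 (SD, n = 5). The log2 changes were 0.21 for sheep 3, 0.26 for sheep 6, -1.01 for sheep 2, -1.43 for sheep 10 and -2.34 for sheep 7, with a mean of -0.86 and a standard error of 0.44. The 95% interval of the mean ran from -1.96 to 0.24, with a limma adjusted p of 0.498 and p = 0.25 in the two-sided exact sign-flip permutation test. Without sheep 7 the mean log2 change was -0.49. The standard deviation of the change between sheep was 1.11, the 3rd highest among the 59 brighter miRNAs (mean log2 signal above 5), whose median was 0.34. MiR-133 was near the lower limit of that set, with a mean log2 signal of 5.63 and 4.55 in the fibrotic segment of sheep 10. With a floor of 32 the log2 change of sheep 10 was -0.98 and the mean -0.77. The part of dim signal in this spread was not tested.

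The smooth muscle miRNA miR-143 went from an intensity of 9449 in normal to 10239 in fibrotic lung of sheep 2, from 4395 to 6509 in sheep 3, from 18181 to 14384 in sheep 6, from 9148 to 12325 in sheep 7 and from 10618 to 7548 in sheep 10. The fibrotic segment was higher in sheep 2, 3 and 7 and lower in sheep 6 and 10, and the range of the fibrotic segments lay within that of the normal ones. Normal segments had a mean of 10358 ± 4978 (SD, n = 5) and fibrotic segments one of 10201 ± 3266 (SD, n = 5). On the log2 scale the mean change was 0.056 with a 95% interval from -0.46 to 0.57, so differences of up to 1.49-fold higher or to 0.73 times the normal level lie within it (limma adjusted p of 0.888, exact permutation p of 0.75 by two-sided sign flips). The mean log2 change was below 0 when arrays were quantile normalized, centred on the miRNA median or set against miR-103, and also without sheep 3 or without sheep 7.

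**Figure D2:**
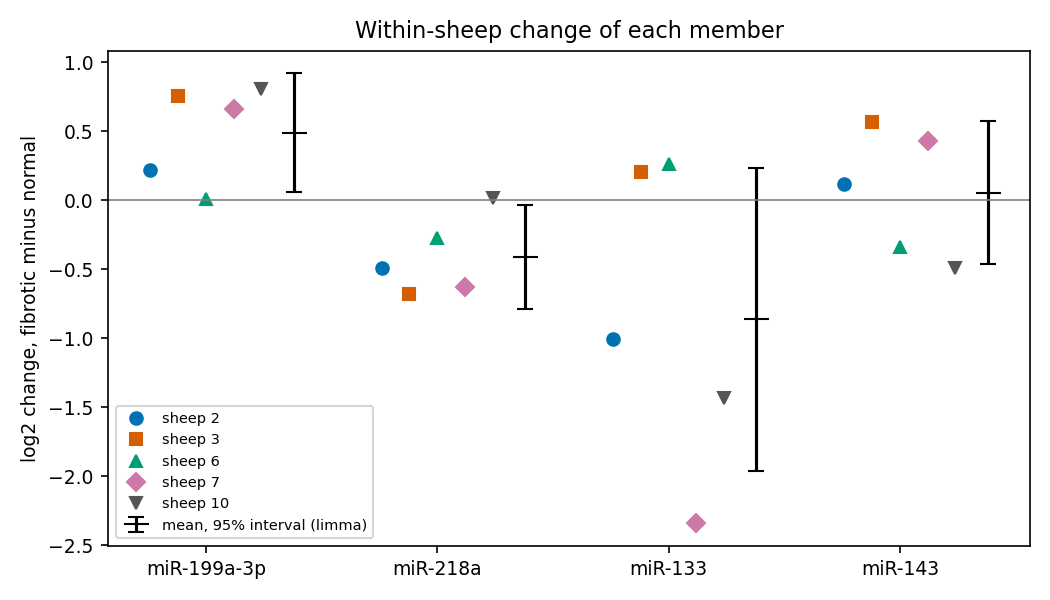
Log2 change of each member (fibrotic minus normal segment) in each of 5 sheep, with the limma mean and its 95% interval in black. The intervals of miR-199a-3p and miR-218a lie on 1 side of 0 before adjustment over 152 miRNAs, and those of miR-133 and miR-143 span 0.

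Changes of members within an array were set against each other, since the difference of 2 log2 changes does not move when an array is scaled by a constant. Of the 6 pairs, the change of miR-199a-3p exceeded that of miR-218a in all 5 sheep, by 0.28 for sheep 6, 0.71 for sheep 2, 0.79 for sheep 10, 1.29 for sheep 7 and 1.44 for sheep 3. The mean log2 difference was 0.90 with a standard error of 0.21 and a 95% interval from 0.32 to 1.48. The two-sided exact sign-flip permutation test gave p = 0.063, or 0.188 adjusted over the 6 pairs. The study had listed miR-199a-3p as higher and miR-218a as lower in these sheep. The direction of this pair was thus known beforehand, and its values are a description. After quantile normalization, which is not a constant scaling, the mean was 0.62, with 4 of 5 sheep above 0. The change of miR-143 was below that of miR-199a-3p in all 5 sheep too, by a mean of 0.43 in size (mean log2 difference -0.43, 95% interval from -1.05 to 0.18), with an exact permutation p of 0.063 and 0.188 adjusted over the 6 pairs. Sheep 10 contributed -1.30 to that mean, the other 4 sheep lay between -0.34 and -0.10, and the mean without sheep 10 was -0.22.

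The remaining pairs did not go the same way in every sheep. MiR-133 was below miR-199a-3p in 4 of 5 sheep, with a mean log2 difference of -1.35 and a 95% interval from -2.96 to 0.26. Between miR-143 and miR-133 the mean was 0.92, with 4 of 5 sheep above 0 and an interval from -0.61 to 2.45. Against miR-218a, the mean log2 difference was -0.45 for miR-133 (interval from -1.89 to 0.99) and 0.47 for miR-143 (interval from -0.46 to 1.39), with sheep on either side of 0 for each. Single animals moved these means, with 0.46 for miR-143 minus miR-133 without sheep 7, -0.14 without sheep 7, -0.20 without sheep 10, -0.70 without sheep 6 and -0.79 without sheep 3 for miR-133 minus miR-218a, and 0.27 without sheep 3 and 0.71 without sheep 10 for miR-143 minus miR-218a. Adjusted over the 6 pairs, the exact permutation p lay between 0.188 and 0.438, and 5 sheep cannot give an adjusted p under 0.05.

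**Figure D3:**
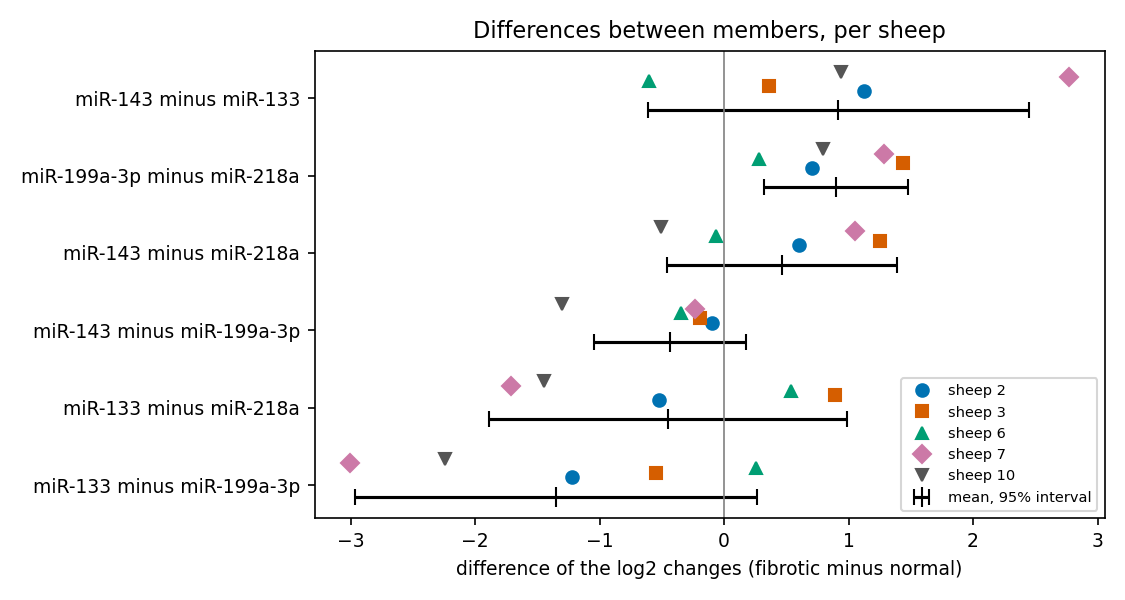
Difference between the log2 changes of 2 members (fibrotic minus normal) in each of 5 sheep, with the mean and its 95% interval in black. All 5 sheep are above 0 for miR-199a-3p minus miR-218a and below 0 for miR-143 minus miR-199a-3p, and the other 4 pairs have sheep on either side of 0.

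For miR-218a and miR-143 the standard deviation of the sheep means was above that of the change within sheep. A mean of both segments varies less than their difference when segments vary independently, so these standard deviations are not like measures. For miR-218a the mean log2 level of both segments was lowest at 5.73 for sheep 6, then 6.04 for sheep 7, 6.30 for sheep 2, 6.67 for sheep 10 and 7.03 for sheep 3. The standard deviation of these means was 0.51, against 0.29 for the change within sheep. MiR-143 had the reverse order of animals, with 12.38 for sheep 3, 13.13 for sheep 10, 13.26 for sheep 2, 13.37 for sheep 7 and 13.98 for sheep 6, and its standard deviations were 0.57 between sheep means and 0.46 for the change. For miR-199a-3p the means differed little between animals, with a standard deviation of 0.14 that ranked 50th of the 59 brighter miRNAs. The standard deviation of its change within sheep was 0.36. For miR-133 the standard deviation of the sheep means was 0.47.

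Across the 10 arrays miR-143 and miR-218a ran opposite to each other, with a Pearson r of -0.89 and a Spearman rho of -0.88, as a description over arrays that come in pairs from 5 animals. This was the lowest r of miR-143 with any of the other 58 brighter miRNAs. The order of the sheep by their change in miR-143, from sheep 3 over 7, 2 and 6 to sheep 10, was the exact reverse of their order by miR-218a. After centring each array on its miRNA median, r was -0.40. The mean log2 level of the 39 control probes with signal had an r over the 10 arrays of 0.76 with miR-143 and -0.50 with miR-218a. With miR-133 it was -0.29 and with miR-199a-3p 0.20. From normal to fibrotic segment this control level changed by 0.65 for sheep 2, 0.31 for sheep 7, -0.074 for sheep 3, -0.37 for sheep 10 and -0.96 for sheep 6 on the log2 scale, and its part in the results was not tested.

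**Figure D4:**
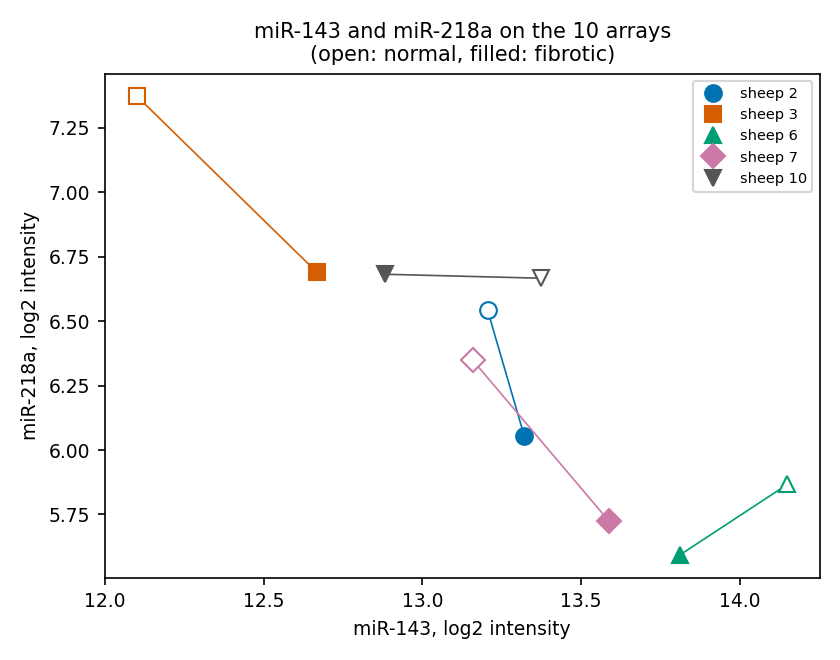
Log2 intensity of miR-218a against that of miR-143 on the 10 arrays, with open symbols for normal and filled symbols for fibrotic segments and a line joining the segments of 1 sheep. The arrays run from sheep 3 at the upper left to sheep 6 at the lower right.

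The miRNAs most like each member over the 10 arrays were taken from the brighter probes by Pearson r, again as a description. For miR-143 these were miR-106b with 0.83, miR-379-5p with 0.82 and miR-127 with 0.81. MiR-218a was most like miR-10b with 0.80, miR-10a with 0.78 and let-7b with 0.76. The nearest to miR-199a-3p were miR-379-5p with 0.65, miR-200b with 0.63 and miR-21 with 0.61. For miR-133 these were miR-194 with 0.69, miR-25 with 0.63 and miR-23b with 0.61. In the order named, mean log2 changes were 0.13, 0.64 and 0.45 for the matches of miR-143 and -0.10, -0.18 and -0.069 for those of miR-218a. They were 0.64, 0.58 and 0.73 for those of miR-199a-3p and -0.23, -0.23 and -0.078 for those of miR-133. Matches were picked on the arrays that gave these changes, so a shared direction is partly built in. Of these miRNAs none passed an adjusted p under 0.05 in limma.

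Other miRNAs linked to the same cells were read from lists. Of 15 fibroblast and mesenchymal names, 9 matched a probe, of which 4 were higher and 5 lower in the fibrotic segments, with a median log2 change of -0.082 against -0.021 over all 152 miRNAs, and 0 passed the adjusted threshold. Beside miR-199a-3p and miR-218a these were miR-21, which promotes fibrosis and had a log2 change of 0.73, miR-22-3p with 0.056, miR-221 with 0.047, miR-125b with -0.082, miR-10b with -0.10, miR-99a with -0.15 and miR-152 with -0.15. At an unadjusted p under 0.05 in limma, 2 of the 9 were higher, miR-21 and miR-199a-3p, and 1 lower, miR-218a, beside 6.58% higher and 5.26% lower over all miRNAs, and the list holds 2 of the members described here. Of 7 striated muscle names miR-133 was the single match, and of 2 smooth muscle names miR-143, so neither muscle type had a further miRNA here against which its member could be read.

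Lists for other lung cells stood beside these values. Of 8 epithelial names 4 matched, miR-200a, miR-200b and miR-200c with log2 changes of 0.67, 0.58 and 0.36, and miR-30a-5p with -0.25. Their summed intensity was 6351 to 9229 in normal and 6422 to 10311 in fibrotic segments. Such a sum weights the brightest probe most, here miR-30a-5p, which was higher with fibrosis in 0 of 5 sheep. Of the 152 miRNAs, 8 were lower in all 5 sheep (5.26%). Of 7 blood cell names 4 matched, with a median log2 change of -0.16 and a summed intensity of 12537 to 15020 in normal and 10733 to 14968 in fibrotic segments. Neither of the 2 endothelial names matched a probe. None of the 8 matched miRNAs passed the adjusted threshold. At an unadjusted p under 0.05 in limma 1 of the 8 was called, miR-200b, beside 18 of all 152 miRNAs (11.8%). It had the lowest unadjusted limma p of the 152, 0.015. It was higher in all 5 sheep, as were 13 of the 152 (8.55%). The part of other cell types in the members' values was not tested.

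By side in place of the label, the mean log2 difference of the left minus the right segment was -0.10 for miR-199a-3p (95% interval from -0.78 to 0.58), -0.058 for miR-218a (-0.65 to 0.53), 0.54 for miR-133 (-0.78 to 1.86) and 0.22 for miR-143 (-0.26 to 0.69). MiR-199a-3p and miR-218a were each higher on the left in 2 of 5 sheep, miR-133 in 3 and miR-143 in 4. The limma adjusted p lay between 0.908 and 0.938 for the 4 members, and 3 of the 152 miRNAs (1.97%) had an unadjusted p under 0.05. If bleomycin went into the left segment in every animal, these are the changes, and the differences described by label for miR-199a-3p and miR-133 turn in direction, while that of miR-218a shrinks from -0.41 to -0.058.

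**Figure D5:**
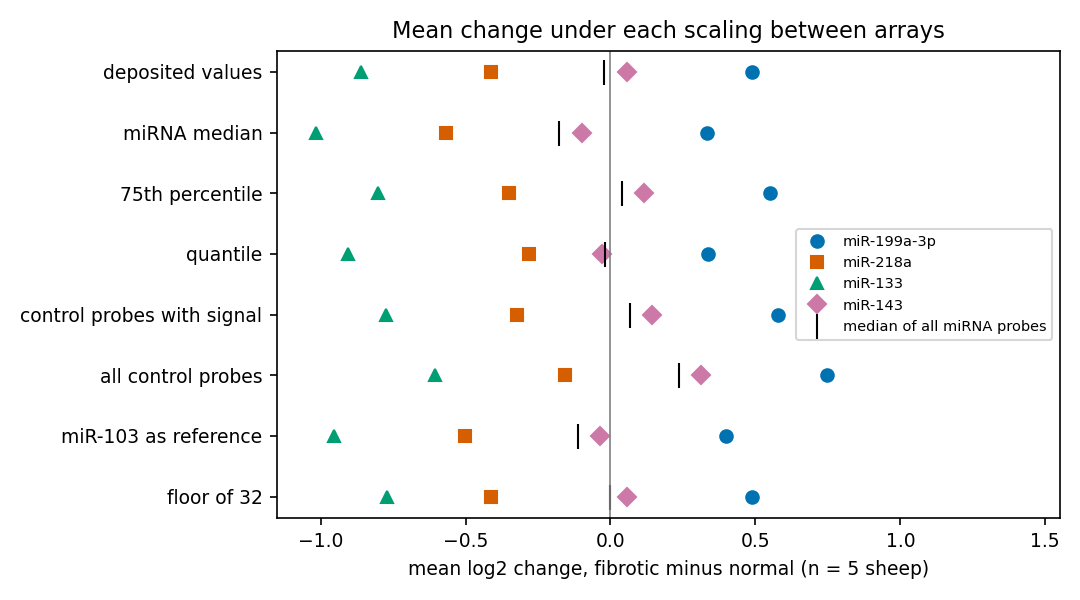
Mean log2 change of each member (fibrotic minus normal, 5 sheep) under each scaling between arrays and with a floor of 32. The median of all 152 miRNA probes is a black tick. MiR-199a-3p stays above 0 and miR-218a and miR-133 below 0 under every scaling shown, and miR-143 crosses 0.

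Scaling each array by a constant moved all members by the same amount. Quantile normalization moved miR-218a up, from -0.41 to -0.28, and the other members down. The floor of 32 moved miR-133 alone of the 4, from -0.86 to -0.77. MiR-199a-3p had a mean log2 change between 0.33 and 0.75 over the scalings, miR-218a between -0.57 and -0.16, and miR-133 between -1.02 and -0.61. The direction of each mean held, while that of miR-199a-3p and miR-218a in single sheep did not. Relative to the median of all miRNAs, which was -0.021 on the deposited values, -0.18 after centring on it and 0.23 with all control probes, the changes were 0.51 for miR-199a-3p, -0.39 for miR-218a, -0.84 for miR-133 and 0.078 for miR-143, and these relative values are the same under any constant scaling of an array. After quantile normalization they were 0.36, -0.26, -0.89 and -0.011.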

How the data were processed

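Lung RNA from 5 sheep was hybridised in 1 dye (Cy3) to a custom ovine array with 152 miRNA and 55 control probes. Each deposited value is an intensity that the authors corrected for background and averaged over 21 spots. The methods describe log2 data, but the deposited intensity values were linear, and scanner and software are not given in the sources used here. Spots were not analysed here, so sheep are the replicates. Conditions were taken from the histology label.

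Intensities were set to at least 1, which affected 14.8% of the miRNA values, and log2 transformed without a filter. A linear model with terms for sheep, as the block, and condition was fitted in limma 3.58.1 under R 4.3.3 with empirical Bayes moderation, followed by Benjamini-Hochberg adjustment across the 152 miRNAs. Single values over sheep were tested by exact sign-flip permutation, two-sided, which cannot go below p = 0.063 with 5 sheep. Intervals are at the 95% level. Precision is limited by the number of arrays. The fit was tested on simulated data, where the log2 change that was added was larger than the mean change of any member. Changes of the members' size were not covered by that test. Segments were paired because they came from 1 animal. Their deviations from the condition means correlated across miRNAs at 0.90 for sheep 3, 0.56 for sheep 10, 0.40 for sheep 6, 0.34 for sheep 2 and -0.67 for sheep 7. Named were the 4 members, the 3 brighter miRNAs most like each, and the listed miRNAs of the same cells. Members and lists were chosen with earlier results of these data known. Alternatives were 5 scalings, a floor of 32, a filter on dim miRNAs, no block, an intensity trend, other codings of the segments, Student's test over sheep, where the methods apply it to the spots of each sheep separately, and leaving out each sheep. Centring on all control probes was added after seeing the data.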

Additional observations from a re-analysis of the deposited data

How the results depend on the processing

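Of 19 alternatives for each member, none brought an adjusted p under 0.05, and the count of miRNAs at that level was 0 in each. The lowest adjusted p was 0.197 for miR-199a-3p and miR-218a, with miRNAs below a mean log2 signal of 5 left out. MiR-218a was below 0 under all 19. The filter on dim miRNAs, the fit without a block, the intensity trend and Student's test cannot change its mean. The count is therefore no measure of stability. MiR-143 changed by -0.099 with arrays centred on the miRNA median, -0.029 after quantile normalization and -0.035 relative to miR-103. With the left segment coded as the infused one, the log2 change was 0.54 for miR-133 and -0.10 for miR-199a-3p, that of miR-218a was -0.058, and the differences were -0.32 for miR-143 minus miR-133, 0.32 for miR-143 minus miR-199a-3p, 0.64 for miR-133 minus miR-199a-3p, 0.60 for miR-133 minus miR-218a and -0.043 for miR-199a-3p minus miR-218a. With 1 sheep left out, the change ran from -0.071 to 0.19 for miR-143, from -1.14 to -0.49 for miR-133, from 0.41 to 0.61 for miR-199a-3p and from -0.52 to -0.34 for miR-218a.

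The count of miRNAs at an unadjusted p under 0.05, 18 on the deposited values, was 8 with arrays centred on control probes with signal, 7 with a floor of 32, 9 without dim miRNAs, 3 with the left segment as bleomycin-infused, and 9 paired and 6 unpaired with Student's test over sheep, which is not the test within each sheep that the methods describe. With 1 sheep left out it ran from 6 without sheep 3 to 26 without sheep 6, with 8 without sheep 2 and 10 without sheep 7 or sheep 10. Without the sheep as a block it was 8, the members' changes were the same, and their adjusted p lay between 0.716 and 0.954, and of the members' calls at an unadjusted p under 0.05 that of miR-218a was lost. The cause of these differences was not tested.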
